A study of Drosophila melanogaster with 3 samples.

Results

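Divergent promoter peaks are the places where M1BP-GFP was bound beside the start sites of 2 neighbouring genes that are transcribed away from each other. Of the 4598 peaks in the thresholded list made from all replicates, 3814 lay off the X chromosome, and 887 of these (23.3%) had their summit within 250 bp of a protein-coding start site on each strand, the minus-strand start lying to the left of the plus-strand start. A further 2347 peaks off X had start sites within 250 bp that were not arranged in this way (called one-sided here), 5 had opposite start sites in overlapping genes alone, and 575 had no start site within 250 bp. Within the thresholded list, the choice used the position of the summit and the annotation and no measure of strength, motif or replicate. The list itself was made from the 3 replicates and thresholded by the irreproducible discovery rate method. Every member had thus already passed a cut that rests on these replicates. The one-sided class also holds peaks at divergent promoters whose farther start lay more than 250 bp from the summit. Examples are summits near the starts of Tnpo and Mcm10, although Sf3b6/Tnpo and bur/Mcm10 have divergent promoter peaks as well. With a limit of 500 bp, 1526 peaks off X counted as divergent. Comparisons with one-sided peaks therefore do not set promoters of 2 genes against promoters of a single gene.

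The series holds 1 group of 3 biological replicates of ChIP-seq, in which sonicated chromatin is immunoprecipitated and the recovered DNA is sequenced. Chromatin came from whole Drosophila melanogaster embryos of mixed sex, collected over 0 to 24 h, from a transgenic line that stably expresses CG9797, which is M1BP, with GFP at its C-terminus. All replicates carry the same tagged line, there is no untagged or treated group, and embryos of all these ages were pooled, so each peak is an average over many tissues and stages. Which promoter drives the transgene is not given in the sources used here. In the labels, the antibody field names CG9797 and not GFP, and a free-text line calls these libraries input controls, while the assay title and a separately listed control describe them as immunoprecipitated. The control libraries were not analysed here. The read depth of each replicate is unknown, because the files hold peaks with scores and no read counts.

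M1BP, motif 1 binding protein, is a zinc-finger protein that binds Motif 1, a directional core promoter element known from promoters of genes that most cells use and associated with paused RNA polymerase II. A divergent promoter is a short stretch of DNA between 2 start sites on opposite strands, so that a factor bound there lies beside 2 genes at once. Such head-to-head neighbours are frequent in the compact fly genome, and each start site has its own core promoter elements, among them Motif 1, the DNA replication-related element (DRE) and the TATA box.

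Motif 1 was searched with its full consensus of 11 bases, whose core reads GGTCACAC, on both strands. The following 5 stretches between the start sites are shown because they are the strongest divergent promoter peaks with an exact Motif 1 between the start sites, no annotated exon there and at most 300 bp between the starts. Capitals mark Motif 1; sequence is from the Release 6 genome (dm6).
CG13690/RpLP1 (chr2L:419653-419951, plus strand, 299 bases): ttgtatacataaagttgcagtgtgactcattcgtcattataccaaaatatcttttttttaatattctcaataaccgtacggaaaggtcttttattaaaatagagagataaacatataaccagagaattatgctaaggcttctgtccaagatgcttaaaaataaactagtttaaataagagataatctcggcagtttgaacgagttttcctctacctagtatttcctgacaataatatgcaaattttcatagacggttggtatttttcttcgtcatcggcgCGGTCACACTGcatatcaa
CG14043 and its neighbour (chr2L:4971486-4971701, plus strand, 216 bases): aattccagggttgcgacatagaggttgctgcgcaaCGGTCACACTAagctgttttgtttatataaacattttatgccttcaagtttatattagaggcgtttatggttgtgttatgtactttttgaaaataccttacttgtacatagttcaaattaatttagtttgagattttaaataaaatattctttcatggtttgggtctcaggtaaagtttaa
Ripalpha/RpL7 (chr2L:10200975-10201003, plus strand, 29 bases): cccactccgcggcCAGTGTGACCGtttgg
CG10214/CG10375 (chr3R:23767489-23767711, plus strand, 223 bases): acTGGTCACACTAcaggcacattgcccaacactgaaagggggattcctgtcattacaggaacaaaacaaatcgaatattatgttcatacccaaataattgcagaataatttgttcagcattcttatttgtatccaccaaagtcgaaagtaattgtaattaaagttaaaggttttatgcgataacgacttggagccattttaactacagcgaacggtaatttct
CG17660/mRpL48 (chr2L:1710422-1710461, plus strand, 40 bases): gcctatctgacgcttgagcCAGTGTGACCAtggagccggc

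In CG13690/RpLP1, Motif 1 was centred 14 bp upstream of the start of RpLP1, a protein of the large ribosomal subunit, and ran in that gene's direction, 286 bp from the start of CG13690. In Ripalpha/RpL7 and CG17660/mRpL48 the letters run on the minus strand, 19 bp upstream of Ripalpha and 25 bp upstream of CG17660, and so were somewhat nearer to the opposite starts, at 11 bp from RpL7 and 16 bp from mRpL48. In the remaining 2 pairs the motif was also nearer to the start it does not point towards. In CG10214/CG10375 it stood 8 bp from the start of CG10214 but pointed towards CG10375, whose start was 216 bp away, and at CG14043 it stood 41 bp from the start of the minus-strand neighbour and pointed towards CG14043, 176 bp away.

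The 2 strongest divergent promoter peaks that met the same limits on distance and exons held no exact Motif 1 between their start sites or within 100 bp of the summit. They are printed to show what lies under the highest peaks, with no capitals because neither Motif 1 nor the DRE (TATCGATA) was found in these letters.
alt/CG7655 (chr3R:17682516-17682668, plus strand, 153 bases): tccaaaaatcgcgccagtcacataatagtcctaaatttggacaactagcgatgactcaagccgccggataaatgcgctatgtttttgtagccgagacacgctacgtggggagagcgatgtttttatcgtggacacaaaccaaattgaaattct
Jupiter/CG14710 (chr3R:11619907-11620089, plus strand, 183 bases): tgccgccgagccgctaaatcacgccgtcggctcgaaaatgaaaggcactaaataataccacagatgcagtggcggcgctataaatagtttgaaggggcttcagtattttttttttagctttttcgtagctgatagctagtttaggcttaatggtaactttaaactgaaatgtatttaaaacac

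Matches to Motif 1 with 1 differing letter lay just outside those stretches, beyond the start sites. Among the 10 strongest divergent promoter peaks, 2 had an exact Motif 1 within 50 bp of a start site and in the direction of its gene, and 7 had one when 1 mismatch was allowed, 3 of them at both start sites. These sites are shown in the direction of the named gene, with the 11 bases aligned to Motif 1 in capitals; those of Frl and PAN3 are exact and the other 8 differ from the consensus by 1 letter.
alt of alt/CG7655 (chr3R:17682485-17682513, minus strand): atgtcgccaCGGTCACTCTGtttgcaaat
CG7655 of alt/CG7655 (chr3R:17682689-17682717, plus strand): actgtgccaTGGTCGCACTGattagctca
CG14710 of Jupiter/CG14710 (chr3R:11620108-11620136, plus strand): tggcaaatgCGGTCACACAGcgcaggtct
RpL3 of CG6693/RpL3 (chr3R:11221842-11221870, plus strand): agttaccacTGGGCACACTAcacactata
Syx18 of Syx18/atl (chr3R:24625554-24625582, minus strand): gtcatcataAGGTCACACTGcaaacggtt
atl of Syx18/atl (chr3R:24625694-24625722, plus strand): aacggtgtaCGGTCACACCAttggcagag
Frl of CG13484/Frl (chr3L:14053206-14053234, plus strand): gacccagttCGGTCACACTGtcccgaata
CG32486 of CG32486/PAN3 (chr3L:3070830-3070858, minus strand): tataagattTGGTCACACCGcacaacact
PAN3 of CG32486/PAN3 (chr3L:3071149-3071177, plus strand): cgcgagatgCGGTCACACTGcttgcggca
Nelf-E of Nelf-E/RpL14 (chr3L:8600844-8600872, minus strand): caactgttaCAGTCACACTAagccaattc

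An exact Motif 1 at both start sites was found at 4 divergent promoter peaks. Of these, 3 are shown, namely CG8031/CtBP, mRpS21/Droj2 and ProRS-m/CG42304, whose signal values were 2089, 2066 and 651. Replicates 1 and 3 listed a summit within 100 bp at all 3 pairs. Replicate 2 did so at mRpS21/Droj2 but not at CG8031/CtBP or ProRS-m/CG42304. CtBP is a transcriptional co-repressor, mRpS21 a protein of the mitochondrial ribosome and ProRS-m a mitochondrial prolyl-tRNA synthetase. Their start-site motifs, again in each gene's direction, are nearly the same letters on opposite strands, each running away from the shared stretch.
CG8031 of CG8031/CtBP (chr3R:13011266-13011294, minus strand): acaagacgaCGGTCACACTGctgtaccaa
CtBP of CG8031/CtBP (chr3R:13011633-13011661, plus strand): acccgtgtgCGGTCACACTGttcgcatag
mRpS21 of mRpS21/Droj2 (chr3R:13381765-13381793, minus strand): tacagtaaaTGGTCACACTGttttgaaag
Droj2 of mRpS21/Droj2 (chr3R:13382092-13382120, plus strand): ttgccgctcTGGTCACACTGgtttccagt
ProRS-m of ProRS-m/CG42304 (chr3L:2651825-2651853, minus strand): acctattgcTGGTCACACTGggaattcat
CG42304 of ProRS-m/CG42304 (chr3L:2652076-2652104, plus strand): ttatcggccCGGTCACACTGatttctagc

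The 10 strongest divergent promoter peaks had signal values, a score per peak given by the authors, from 3110 to 4457, while the thresholded list as a whole ran from 261 to 5321. The highest was alt/CG7655 (chr3R:17682276-17682865) at 4457. Its signal value was 1977 in replicate 1, 1697 in replicate 2 and 771 in replicate 3, which placed it at rank 4, 2 and 8 of the 30000 entries of the 3 replicates' own lists. Signal values of different lists are not on 1 scale, so the ranks are what can be set side by side.

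Jupiter/CG14710 (chr3R:11619739-11620376) followed at 4118, with ranks 3, 14 and 4 in replicates 1, 2 and 3. Jupiter encodes a microtubule-binding protein. CG6693/RpL3 (chr3R:11221297-11222011) had 3627 and ranks 7, 27 and 10; RpL3 is a core protein of the large ribosomal subunit. Atat/Shc, a tubulin acetyltransferase beside an adaptor of receptor tyrosine kinases, had 3589 and ranks 10, 22 and 15. These were high in all 3 replicates.

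Nup98-96/mbc paired a nuclear pore gene with myoblast city, which is needed for myoblast fusion, and had a signal value of 3585 with ranks 6, 41 and 14. Syx18/atl paired a SNARE of the endoplasmic reticulum with atlastin, a GTPase that fuses its membranes, at 3532 and ranks 8, 40 and 13. CG13484/Frl, the latter a formin that builds actin filaments, had 3443 and ranks 16, 15 and 31. Slh/oaf had 3320 and ranks 19, 43 and 11, Slh being a vesicle fusion protein of the Sec1/Munc18 kind. CG32486/PAN3, the latter a subunit of a poly(A) nuclease, had 3171 and stood at rank 14 in replicate 1 and rank 5 in replicate 3 but 178 in replicate 2. Nelf-E/RpL14 closed the group at 3110 with ranks 17, 51 and 20, joining a subunit of the elongation factor that holds paused RNA polymerase II to a ribosomal protein gene. In all 10 the summit lay between the 2 start sites.

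The 887 divergent promoter peaks stood at 819 gene pairs with 1635 genes in all, 13.9% of the 11749 protein-coding genes off X. At 68 of the pairs there were 2 summits, 50 peaks had start sites of more than 2 genes within 250 bp, and 327 peaks (36.9%) had another thresholded summit within 250 bp, so neighbouring peaks are not independent of each other. Arm 3R held 286 of them, 2R 210, 3L 201 and 2L 189, and their share of each arm's peaks ran from 21.3% on 3L to 25.9% on 3R. Chromosome 4 held 1, Dyrk3/Cadps (chr4:1230652-1230881), with an exact Motif 1, a signal value of 595 and ranks 2034 and 2087 in replicates 1 and 3; replicate 2 listed no summit within 250 bp there.

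Start sites at divergent promoter peaks were a median of 200 bp apart (interquartile range 84 to 266). The shortest was Atg6/Pisd, 1 bp apart, with a signal value of 360, and the longest Mettl2/Bgb, 476 bp apart, with 966. Atg6 is an autophagy gene and Pisd a gene of phospholipid synthesis. The summit lay between the start sites in 687 peaks (77.5%), right of the plus-strand start in 123 and left of the minus-strand start in 77. Where it lay between them, it was in the middle 50% of the stretch in 436 of 687 peaks (63.5%). The median distance from the summit was 54 bp to the nearer start and 153 bp to the farther one.

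The limit of 250 bp divides a continuous range. Just inside it were AP-2alpha/ebi, with a signal value of 1176, and Prestin/Wdr92, with 763, each with its farther start 250 bp away. Just outside, at 251 bp, were LSm1/Xpd with 687 and l(3)04053/CG7369 with 579. There were 266 members with the farther start at 201 to 250 bp and 233 further peaks with it at 251 to 300 bp.

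To see which divergent promoters had such a peak, all annotated divergent pairs off X with start sites up to 500 bp apart were taken as the denominator. A thresholded summit within 250 bp of both starts, called a joint peak here, was found at 896 of 1706 such pairs (52.5%, 95% Wilson interval 50.1 to 54.9); intervals here and elsewhere cover counting error alone. When the 4598 strongest peaks of each replicate were used, the share was 55.1% in replicate 1, 34.8% in replicate 2 and 51.5% in replicate 3, a mean of 47.1% ± 10.9 (SD, n = 3). Replicate 2 was thus the low one. Counted by gene, 2067 of 3249 genes in such pairs (63.6%) had a thresholded summit within 250 bp of a start site, against 1548 of 8500 other protein-coding genes off X (18.2%) and 30.8% of all. A summit in a divergent pair can count for both genes, whereas elsewhere it usually counts for 1. The share of genes in pairs was 65.1%, 52.2% and 60.8% in replicates 1, 2 and 3, and that of other genes 18.2%, 18.6% and 17.0%, so the groups did not overlap.

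The share of pairs with a joint peak varied with the distance between the start sites. Leaving out 42 pairs of replication-dependent histone genes, whose repeated copies had no thresholded summit within 250 bp of either start and whose starts are 26 to 189 bp apart, 75.4% of pairs 51 to 100 bp apart had a joint peak (69.1 to 80.7), 72.6% at 101 to 150 bp, 55.7% at 151 to 200 bp (46.5 to 64.4), 73.2% at 201 to 250 bp (66.8 to 78.8) and 62.9% at 251 to 300 bp. The share was lower at 151 to 200 bp than in the bins on both sides in the thresholded list and in replicates 1 and 3, with 61.7%, 42.6% and 52.2% in replicates 1, 2 and 3; in replicate 2 the next bin was about as low, at 44.0%. Beyond 300 bp the share fell to 7.89% at 401 to 500 bp, but there the stretch in which a summit can lie within 250 bp of both starts shrinks with the distance, so that fall is partly fixed by the definition.

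A window of constant size at the midpoint and windows at the 2 starts gave different pictures. A thresholded summit within 100 bp of the midpoint was found at 65.1% of pairs 201 to 250 bp apart, 55.0% at 301 to 350 bp and 24.1% at 401 to 500 bp. In the last of these bins replicates 1 and 3 had 36.8% and 44.3% and replicate 2 had 3.07%. A thresholded summit within 50 bp of either start was found at 67.2% of pairs 51 to 100 bp apart, 35.9% at 201 to 250 bp, 34.0% at 301 to 350 bp, 39.3% at 351 to 400 bp and 33.3% at 401 to 500 bp. In the last of these bins the replicates ran from 24.6% to 36.8%, the highest being replicate 2. Pairs over 300 bp apart had summits at a start about as often as pairs 201 to 250 bp apart. For starts up to 100 bp apart, the 2 windows of 50 bp meet or overlap and cover the whole stretch between the starts. For wider pairs they leave out the middle, so the 67.2% and the later shares do not cover like stretches. The joint peaks and the midpoint window are drawn in the plot of pairs by start-site distance.

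**Figure D1:**
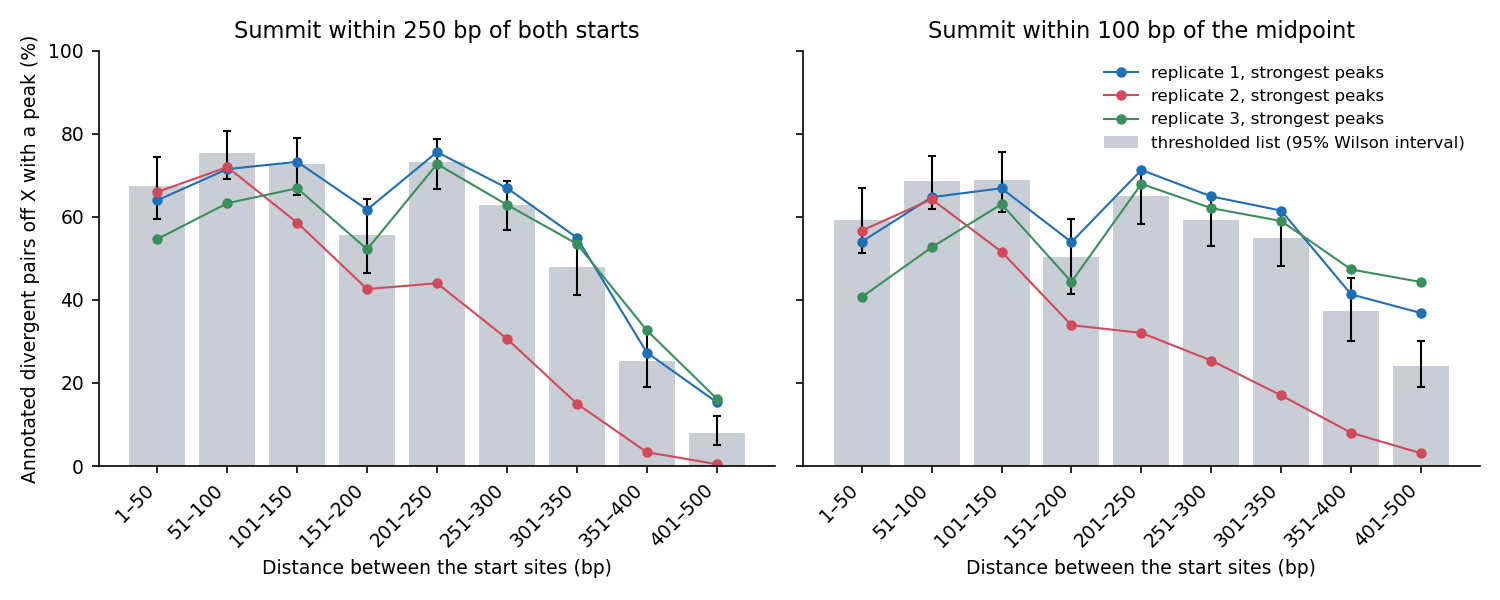
Share of annotated divergent gene pairs off X with an M1BP-GFP summit (y, percent) by distance between the start sites (x, bp), without pairs of replication-dependent histone genes; grey bars are the thresholded list with 95% Wilson intervals and lines are the 4598 strongest peaks of each replicate. On the left a summit must lie within 250 bp of both starts, on the right within 100 bp of their midpoint; the lower bar at 151 to 200 bp and the low line of replicate 2 beyond 100 bp are seen in both.

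The 810 pairs without a joint peak were not all without M1BP-GFP. At 298 of them (36.8%) a thresholded summit lay within 250 bp of either start, and at 189 no replicate's list held a summit that near to either start. For a summit within 250 bp of both starts, 471 pairs had none in any replicate's list, 198 had one among the strongest peaks of at least 1 replicate and 1 had one among the strongest of all 3. The first 5 of the 810 by name with a gene on one of the lists used below were Afti/ATPsynE, ash1/Taf6, AsnRS/DCTN6-p27, ATPsynCF6/Sec13 and ATPsynG/SCAR. All but ATPsynCF6/Sec13 had a thresholded summit within 250 bp of either start. The pair ash1/Taf6, a trithorax group gene beside a subunit of TFIID, was the pair with such a summit near both starts among the strongest of all 3 replicates, at ranks 471, 3211 and 220 in replicates 1, 2 and 3. The highest-ranking summit near both starts of a pair without a joint peak was that of sip2/Coprox in replicate 1 (rank 337), sba/CG31141 in replicate 2 (rank 866) and CG33635/spen in replicate 3 (rank 30). All 3 of these pairs also had a thresholded summit within 250 bp of either start.

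Within 100 bp of the summit, an exact Motif 1 was found at 87 of 887 divergent promoter peaks (9.81%, 8.02 to 11.9), close to the 10.7% of all thresholded peaks. It was found at 307 of 2347 one-sided promoter peaks (13.1%), at 2.09% of peaks away from start sites, at 3.25% of all protein-coding start sites off X and at 0.113% of windows placed 1000 bp to the left of the divergent summits. At the midpoints of divergent pairs without a joint peak it was found in 0 of 810 windows (95% Wilson interval up to 0.472%). The starts of these pairs were a median of 311 bp apart, against 207 bp for pairs with a joint peak. For most of them a window of 100 bp on each side of the midpoint therefore ends short of both starts. The 810 also include the 42 histone pairs. Both limits hold for every motif counted at these midpoints. The difference between divergent and one-sided peaks was -3.27 percentage points. It was -3.51 in replicate 1, 1.63 in replicate 2 and -3.44 in replicate 3, so 2 of 3 replicates shared the sign, and an exact two-sided sign-flip permutation test over the replicates gave p = 0.50; the smallest p that 3 replicates allow is 0.25. With start sites limited to 100 bp from the summit the difference was 1.44 points, so its direction depends on that limit. With up to 1 mismatch the motif was found at 26.2% of divergent and 33.6% of one-sided peaks, against 28.1% of all thresholded peaks. In replicates 1, 2 and 3 this was 26.5%, 32.1% and 24.9% of divergent and 34.1%, 25.9% and 32.3% of one-sided peaks. Replicate 2 again went the other way.

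A window around the summit misses motifs at the start sites when the starts are far apart. Sought instead within 50 bp of either start site and in the direction of its gene, an exact Motif 1 was present at 124 divergent promoter peaks (14.0%), and one with up to 1 mismatch at 311 (35.1%). Of pairs with a joint peak, 113 of 896 (12.6%, 10.6 to 14.9) had an exact match at 1 start and 5 at both. Of pairs without one, 37 of 810 (4.57%, 3.33 to 6.23) had it at 1 start and 1 at both. Read the other way, 75.3% (67.9 to 81.5) of the 150 annotated pairs with an exact match at 1 start had a joint peak, against 50.2% (47.7 to 52.7) of the 1550 pairs without any. In replicates 1, 2 and 3 these shares were 76.7%, 53.3% and 78.7% with the motif and 52.9%, 33.1% and 48.8% without, higher with it in 3 of 3. Of the 6 pairs with an exact match at both starts, 83.3% had a joint peak, but 0% in replicate 2. These counts keep the 42 histone pairs and the widest pairs, where a joint peak is limited by definition. They concern joint peaks and not all binding, since 298 of the 810 pairs without one had a thresholded summit within 250 bp of either start.

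The start-site matches lay mostly just inside the transcribed part. The centre of an exact match was a median of 8.5 bp downstream of the start (interquartile range -2 to 20), and 94 of 128 matches (73.4%) were 0 to 40 bp downstream. With up to 1 mismatch the median was 9 bp over 357 matches. Direction was also counted in the window around the summit, where none was required. Of the 87 exact matches there, 67 (77.0%, 67.1 to 84.6) were nearer to the start of the gene whose direction they share than to the opposite start, with a median position of 2 bp downstream of the first and 90 bp upstream of the second. With starts over 150 bp apart this held for 26 of 37 matches (70.3%, 54.2 to 82.5). At one-sided peaks 251 of 309 matches (81.2%) ran in the direction of the gene.

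**Figure D2:**
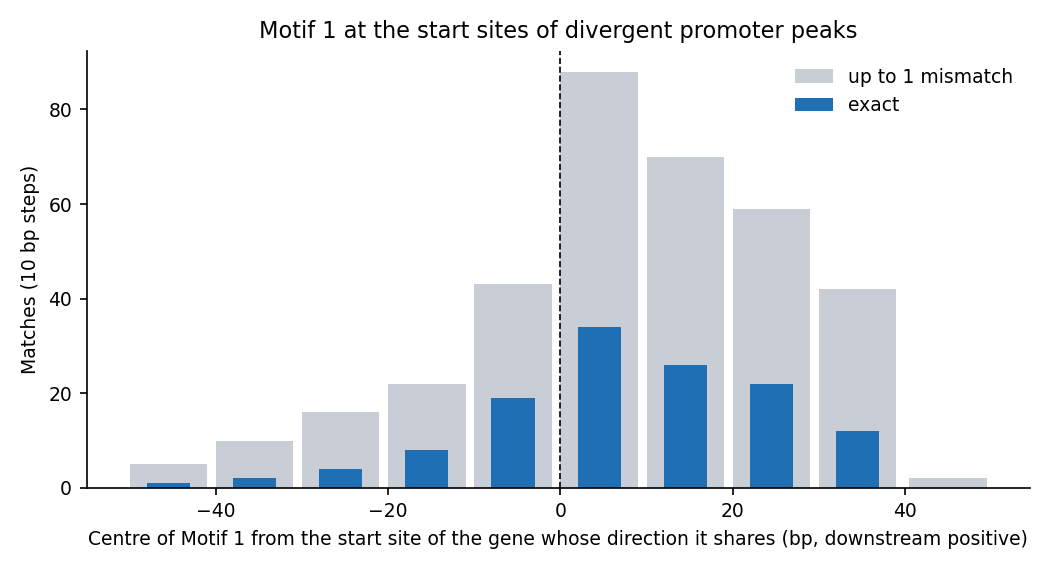
Number of Motif 1 matches (y) by the position of their centre relative to the start site of the gene whose direction they share (x, bp, downstream positive) at the 887 divergent promoter peaks; blue bars are exact matches and grey bars matches with up to 1 mismatch, in steps of 10 bp. Both rise sharply at the start site, and 94 of 128 exact matches lie 0 to 40 bp downstream of it.

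Peaks with a start-site motif had higher signal values than those without. The median signal value was 1263 at the 42 peaks with a match of up to 1 mismatch at both starts, 1108 (interquartile range 792 to 1512) at the 269 with it at 1 start and 550 (380 to 910) at the 576 with it at neither. Among peaks with a match at both, 1 and neither start, 66.7%, 64.3% and 43.1% were found among the strongest peaks of all 3 replicates. The interquartile ranges of the latter 2 groups overlap.

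The position of the summit differed with the start that carried the motif. Where a match of up to 1 mismatch was present at 1 start alone, the summit was nearer to that start in 159 of 269 peaks (59.1%, 53.1 to 64.8), by a median shift of 10 bp from the midpoint. The count was 90 of 133 (67.7%), with a median shift of 19.5 bp, for motifs at the plus-strand start, and 69 of 136 (50.7%), with 2.25 bp, for motifs at the minus-strand start. Summits of peaks with the motif at neither start lay a median of 8 bp to the plus-strand side of the midpoint.

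Other core promoter elements were sought in the same window of 100 bp on each side of the summit. The DRE, the site of the factor DREF, was found at 115 divergent promoter peaks (13.0%), against 10.9% of all thresholded peaks, 11.1% of one-sided peaks and 6.05% of midpoints of pairs without a joint peak. The share in replicates 1, 2 and 3 was 13.1%, 13.7% and 9.36%. Motif 1 and the DRE occurred together at 10 peaks, including l(2)34Fd/Rab14 (2600). This is near the 11.3 peaks that would hold both if the 2 occurred independently. Peaks with Motif 1 alone had a median signal value of 1268, those with the DRE alone 531 and those with neither 706. The DRE was found at 11.8% of the 178 strongest members and 15.7% of the 178 weakest, whereas an exact Motif 1 was found at 18.5% and 0.562% of them. In the 177 members next in strength after the strongest, the DRE was at 5.08% and Motif 1 at 19.2%, so the DRE share did not change steadily with strength.

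The TATA box, searched as TATAAA, was found at 34.7% of divergent promoter peaks, 25.8% of one-sided peaks, 27.9% of all thresholded peaks and 47.7% of the midpoints of pairs without a joint peak. Base composition moves with these counts: the 201 bases around the summit had a median GC content of 36.8% at divergent and 39.8% at one-sided peaks. Its part in the result was not tested.

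The E-box, searched as CAGCTG, was found at 19.2% of divergent peaks, 15.9% of one-sided peaks and 14.9% of all. Windows 1000 bp to the left of the divergent summits held it nearly as often, at 14.9%, and all start sites off X at 13.7%. The replicates differed, with 18.1%, 26.3% and 14.2% of divergent and 13.7%, 18.5% and 12.3% of one-sided peaks in replicates 1, 2 and 3. GAGA factor acts at many developmental promoters, and its site, searched as GAGAGAG, was found at 6 divergent promoter peaks (0.676%), at 2.43% of one-sided peaks, 2.68% of all thresholded peaks, 4.81% of midpoints of pairs without a joint peak and 4.54% of all start sites off X. In replicates 1, 2 and 3 it was at 0.551%, 1.13% and 0.571% of divergent and 1.99%, 4.30% and 1.41% of one-sided peaks, lower at divergent peaks in 3 of 3.

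The median divergent promoter peak was stronger than the median one-sided one. The median signal value was 727 (interquartile range 426 to 1255) against 577 (376 to 999). As a percentile of strength within the thresholded list, where 100 is the strongest, the medians were 63.7 and 53.8. The replicates' own lists gave 64.9 against 54.3, 69.8 against 53.8 and 68.5 against 54.9 in replicates 1, 2 and 3. The difference averaged 13.3 percentile points ± 2.67 (SD, n = 3) and was above 0 in 3 of 3 replicates, and the exact two-sided sign-flip permutation test gave p = 0.25, the smallest that 3 replicates allow. The distributions overlap widely: single divergent peaks ran from 261 to 4457.

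**Figure D3:**
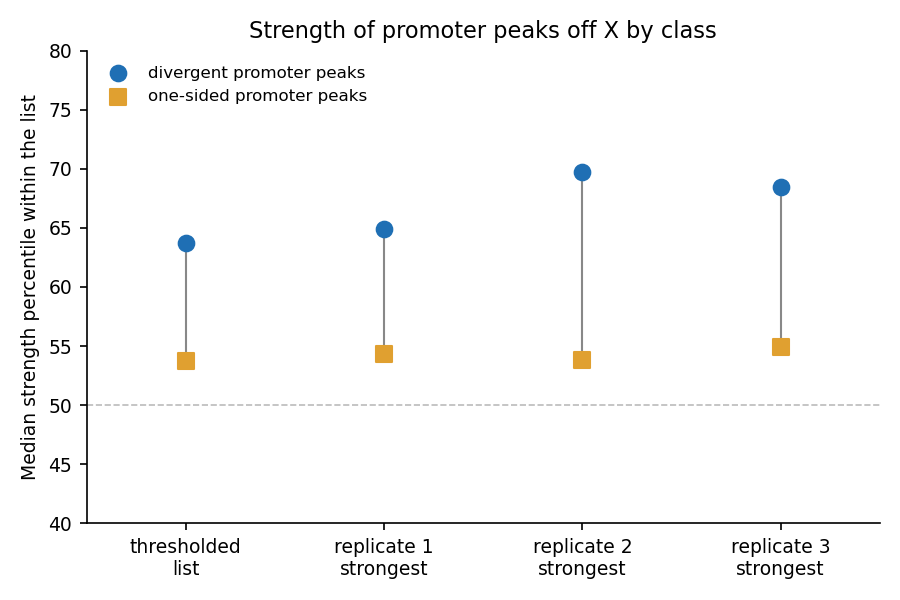
Median strength percentile within each list (y, 100 is the strongest; the axis starts at 40) of divergent (circles) and one-sided (squares) promoter peaks off X, for the thresholded list and the 4598 strongest peaks of each replicate (x). Circles lie between 63.7 and 69.8 and squares between 53.8 and 54.9, in all 4 lists.

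Across the 887 peaks the signal value followed the number of Motif 1 matches with up to 1 mismatch (Spearman's rho 0.47) more than the distance between the starts (0.06), GC content (0.12) or peak width (-0.19). Distance and GC content were related to each other (rho -0.47), with wider pairs being poorer in GC. These values describe peaks that share their libraries. The members' signal values had a rank correlation of 0.91 between replicates 1 and 3 over 793 peaks, 0.75 between 1 and 2 over 625, and 0.67 between 2 and 3 over 583.

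Most divergent promoter peaks had a counterpart, a summit within 100 bp, among the strongest peaks of replicate 1, with 818 (92.2%) against 85.5% of all thresholded peaks, and of replicate 3, with 732 (82.5%) against 73.8%. Replicate 2 held 562 (63.4%), near the 62.4% of all. All 3 replicates held 449 (50.6%), against 43.3% of all thresholded peaks and 46.4% of one-sided ones, and 11 divergent promoter peaks were in none. The median signal value was 1169 for those in all 3 and 497 for those in 2. Members come from a list made from these same replicates, so their recovery can be read only beside that of other thresholded peaks.

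Replicate 2 stood apart by base composition. Of members with GC content at or below their median, it held 46.7% where the starts were up to 200 bp apart and 38.5% where they were farther apart. Of members with higher GC content it held 87.4% and 83.1%. Replicate 1 held 89.4% to 95.5% in these 4 sets, and replicate 3 held 88.9% and 92.9% of the low-GC and 71.9% and 76.2% of the high-GC sets. These shares depend on the limit of 100 bp between summits. Of members with starts over 200 bp apart, replicate 2's strongest peaks held 51.6% within 100 bp and 73.8% within 250 bp. Of the 225 members in the lowest GC quartile, its full list held 31.6% within 100 bp and 68.9% within 250 bp. At its own divergent promoter peaks with starts over 200 bp apart, the summit of replicate 2 was a median of 44 bp from the nearer start, and within 50 bp of it in 55.1%. In replicates 1 and 3 the median was 92 and 100 bp, and the share 18.4% and 15.1%.

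**Figure D4:**
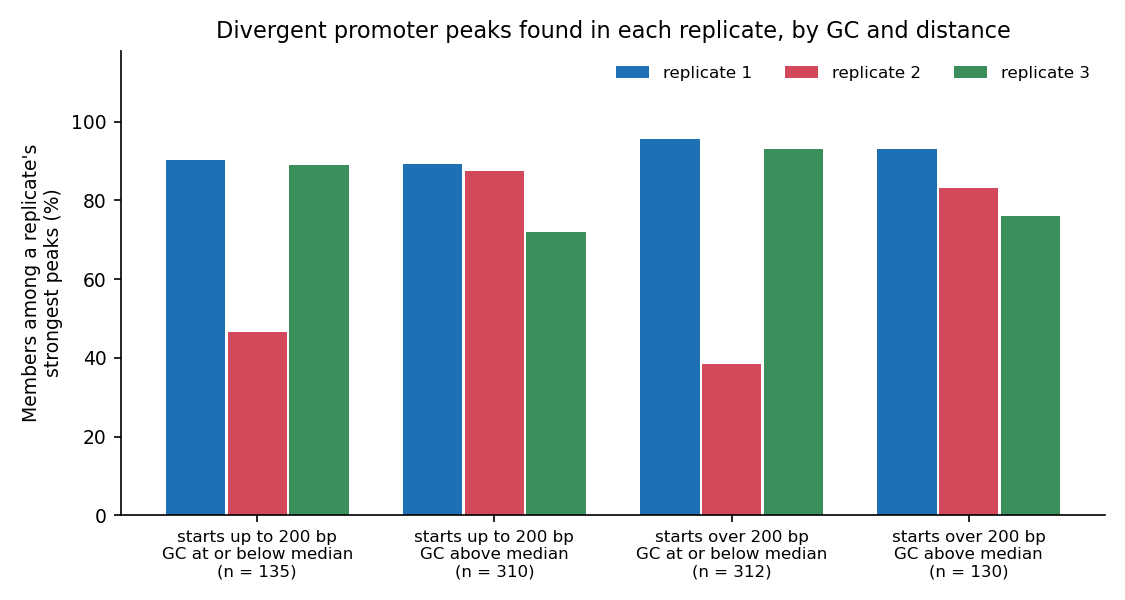
Share of divergent promoter peaks with a summit within 100 bp among the 4598 strongest peaks of each replicate (y, percent; bars are replicates), by start-site distance and by GC content at or below or above the members' median (x, with the number of peaks). Replicate 2 is at 46.7% and 38.5% in the low-GC sets and at 87.4% and 83.1% in the high-GC sets.

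Without the requirement for a strong peak, every member had an entry within 250 bp in replicate 1, and 94 had none in replicate 2 and 26 none in replicate 3. Among the strongest without an entry in replicate 2 were dgt6/Vha100-1 (signal value 1198) and Klc/CG10984 (1088), of which dgt6/Vha100-1 ranked 413 in replicate 1 and 231 in replicate 3. The strongest without one in replicate 3 were ana2/CG13751 (580), M1BP/CG8202 (578) and AGO1/CG33155 (568). The promoter of the gene for M1BP itself is thus among the divergent promoter peaks, with starts 393 bp apart, rank 1992 in replicate 1 and no entry within 250 bp in replicates 2 and 3.

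The genes at divergent promoter peaks were counted on 25 gene lists, which ran from 0% to 56.7% of a list's genes. The lists were chosen with results of these data known, and their counts are read against the 13.9% of all protein-coding genes off X that stood at a divergent promoter peak. In RNA processing, 17 of 30 spliceosome genes (56.7%) and 10 of 18 RNA exosome and rRNA processing genes (55.6%) stood at one. The strongest were Sf3b6/Tnpo, a splicing factor subunit beside a nuclear import receptor, at 2801, and Fib/CG3085, with fibrillarin, the methyltransferase of rRNA, at 3017. In transcription the counts were 18 of 41 RNA polymerase II and general factors (43.9%), 7 of 15 RNA polymerase I and III genes (46.7%) and 11 of 27 Mediator genes (40.7%). Nelf-E/RpL14, Polr1F/Rat1 (1490) and elm/MED27 (1890) were the strongest of these.

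In translation, 25 of 78 cytosolic ribosomal protein genes (32.1%), 23 of 62 mitochondrial ribosomal protein genes (37.1%), 9 of 30 aminoacyl-tRNA synthetases and 8 of 46 translation factors (17.4%) were at divergent promoter peaks. The 27 peaks of cytosolic ribosomal protein genes had a median of 1278 on the signal scale, against 727 over all members. An exact Motif 1 within 100 bp of the summit was held by 3.70% of these few peaks, against 9.81% over all members. That window misses motifs farther from the summit, such as the one shown above at RpLP1. Their strongest was CG6693/RpL3, that of the mitochondrial ribosome mRpS16/cg (2477), that of the synthetases GlnRS/RIOK2 (1814), with an exact Motif 1, and that of the factors ERp60/eEF1alpha1 (1141).

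In membrane traffic, 21 of 54 vesicle sorting and tethering genes (38.9%) and 9 of 22 Rab GTPases (40.9%) stood at divergent promoter peaks, led by Vps60/anchor (1876) and l(2)34Fd/Rab14 (2600). Autophagy counted 6 of 17, led by Atg7/Sec6 (816), and the vacuolar proton pump 5 of 31, led by Vha55/Snx3 (1872). Counts for protein turnover and folding were 14 of 42 proteasome genes, led by Prosbeta1/Rrp42 (2202), and 1 of 6 chaperonin genes, CCT4/CG6153 (1216). In the nucleus 6 of 21 nuclear pore genes, 11 of 32 DNA replication genes, led by bur/Mcm10 (1771), 9 of 26 Polycomb and trithorax group genes, led by CG31344/Caf1-55 (1546), and 4 of 20 cyclins and their kinases, led by CycG/Med (1905), were at divergent promoter peaks. The respiratory chain and ATP synthase counted 17 of 82, led by ATPsynF/CG3548 (2549), and motor proteins 3 of 30, led by Khc/CG33017 (1268).

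None of 95 cuticle protein genes, 154 odorant, gustatory and ionotropic receptor genes, 25 segmentation and homeotic genes and 15 mitochondrial import genes was at a divergent promoter peak. In an annotated divergent pair were 3 of the cuticle (3.16%), 16 of the receptor (10.4%), 0 of the segmentation and homeotic and 3 of the import genes (20%). Over all protein-coding genes off X it was 3249 of 11749 (27.7%), a share not far from that of the few import genes. Among the highest lists were 22 of 30 spliceosome and 46 of 62 mitochondrial ribosomal protein genes. Of list genes that are in a pair, 93.9% of cytosolic ribosomal protein genes, 92.0% of RNA polymerase II and general factors, 67.4% of mitochondrial ribosomal protein genes, 44.4% of kinesins and dyneins, 33.3% of mitochondrial import genes and 0% of both the 16 receptor and the 3 cuticle genes had a thresholded summit within 250 bp of a start site, against 63.6% over all genes in pairs.

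**Figure D5:**
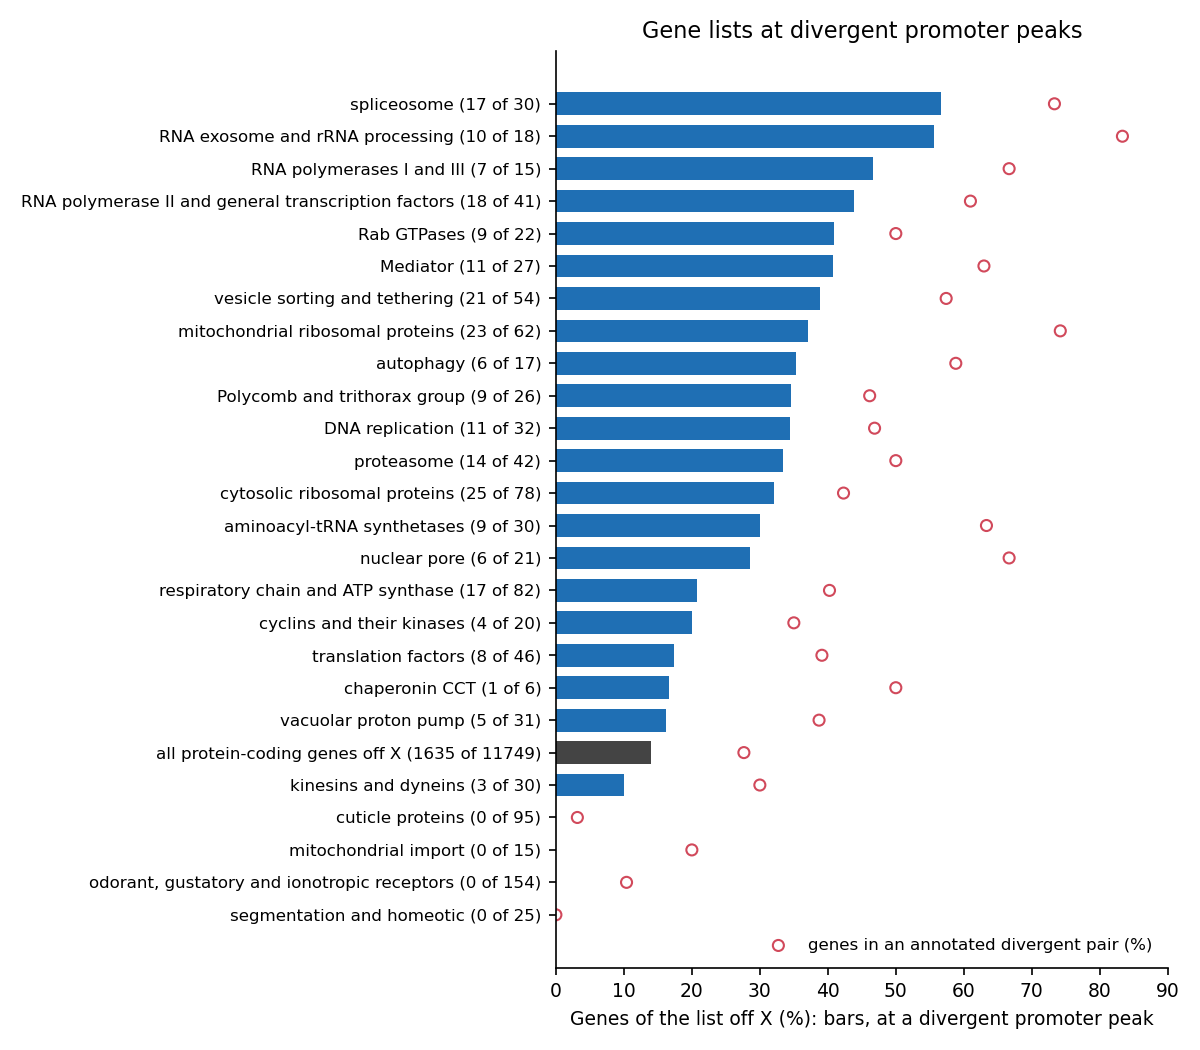
Share of each list's protein-coding genes off X (x, percent) that stand at a divergent promoter peak (bars, with counts in the labels) or in any annotated divergent pair with starts up to 500 bp apart (open circles). The bar for all protein-coding genes off X is at 13.9%; the bars run from 0% to 56.7%, and the 4 lists with the smallest share of genes in divergent pairs have bars at 0%.

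At 15 divergent promoter peaks both genes of the pair were on a list. After Nelf-E/RpL14, the strongest were Prosbeta1/Rrp42, a proteasome subunit beside a subunit of the RNA exosome (2202), RpS27/Nup37, a ribosomal protein beside a nucleoporin, with 2 summits at 2043 and 828, Sec3/COX7B, an exocyst subunit beside a cytochrome c oxidase subunit (1508), and Rrp5/Dis3 (1190), of which both act on RNA in the nucleolus or exosome. Then came mRpL55/ATPsynD (937, with an exact Motif 1), Atg7/Sec6 (816), Csl4/Nup160 (693, with an exact Motif 1) and Dhc64C/LeuRS-m (463). Among the weaker ones was Taf10b/Taf10 (381), a pair of TFIID subunit paralogs whose starts are 45 bp apart. It had no summit within 100 bp in the list of replicate 3. RpS27/Nup37 ranked 226, 135 and 217 in replicates 1, 2 and 3, a narrow range, while Sec3/COX7B ranked 356, 1243 and 411.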

How the data were processed

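ChIP-seq peaks of M1BP-GFP in 3 biological replicates of 0 to 24 h whole embryos were analysed, with chromatin sheared to 200 to 800 bp per the labels. The authors deposited, for each replicate, a list of 30000 relaxed entries made as input for the irreproducible discovery rate (IDR) method, and for the series a thresholded list of 4598 peaks and a pooled relaxed list. Each entry has an authors' signal value, treated here as a score on a scale of its own list, a deposited −log10 q-value, which was at a ceiling of 3.95 for 871 members, and the position of the summit. Coordinates are dm6, per the labels. Which aligner, peak caller, IDR threshold and versions were used, and the read depth, is not given in the sources used here, so precision is given by the 3 replicates and by 95% Wilson intervals, which cover counting error alone. Replicates are separate biological replicates per the labels, which do not say whether they share a collection of embryos.

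Start sites of protein-coding transcripts came from Ensembl release 115 (BDGP6.54) and sequence from the NCBI Release 6 genome; the largest peak end lay inside the sequence on all 6 chromosome arms. A peak was divergent when its summit lay within 250 bp of both starts; where several pairs qualified, the one with the shortest distance was kept. The 4598 strongest entries of each replicate were classified in the same way, and summits within 100 bp were counted as shared. The 8 motifs were searched on both strands, exactly unless stated; the core lies inside Motif 1, and the middle of the DRE also matches the site of the insulator protein BEAF-32. Shares at all start sites and in windows 1000 bp away are given beside some of them. Scripts were tested on simulated data with planted motifs, peaks and pairs.

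The series has 1 group, so no conditions are compared. Peaks share libraries and are not replicates, so no p-value was taken over them; the exact sign-flip permutation test runs over the replicates' own differences. The peaks and gene lists were chosen with earlier results of these data known, and the start-site motif counts, the midpoint window, the counts at either start, the share without histone pairs and the sets by GC content and distance were added after the values were seen. Named pairs are the 10 strongest members, the strongest member of each list, pairs with both genes on a list, the extremes of distance, members at the 250 bp limit, the strongest absent from a replicate, and pairs without a joint peak chosen by name or by rank. Of these, 1 pair that the rule names is not reported here. Sequences shown are the strongest off arm 2R that met the stated limits. Values were computed in Python 3.11.15 (scipy 1.17.1, pandas 2.3.3, numpy 2.4.6) and drawn with matplotlib 3.10.9.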

Additional observations from a re-analysis of the deposited data

How the results depend on the processing

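No paired analysis was possible because the series has 1 group. Of 107 recomputed values, 62 moved by less than the error set for them or kept their sign, 43 moved further and 2 changed sign; the error was the SD between replicates or, for the share in all 3 replicates, its 95% Wilson interval. The difference in strength percentile kept its sign under all 11 alternatives run, with 6.93 to 7.22 when 1 replicate at a time was left out. The difference in Motif 1 share was 1.44 with start sites within 100 bp and 1.63 in replicate 2 alone, against -4.61 to -2.58 with 1 replicate left out. Start sites within 100 bp gave a divergent share of 7.16%, a median distance of 72 bp, a strength percentile of 70.1, Motif 1 at 16.5%, the DRE at 21.2% and 63.7% in all 3 replicates. Start sites within 500 bp gave a divergent share of 40.01%, a distance of 259 bp, a percentile of 57.9 and 45.3% in all 3 replicates. Signal values above the list's median gave a divergent share of 28.9%, 35.1% of pairs with a joint peak, a percentile of 79.7, Motif 1 at 14.4% and 71.7% in all 3 replicates. Neighbouring summits counted once gave a percentile of 68.5 and 54.8% in all 3 replicates. Leaving out each replicate in turn gave a divergent share of 25.9% to 26.9%, 29.0% to 42.6% of pairs with a joint peak, a distance of 146 to 218 bp, a percentile of 72.4 to 77.9, Motif 1 at 12.3% to 16.0% and the DRE at 11.3% to 13.1%; each such value keeps peaks shared by the other 2 replicates alone. The share of pairs with a joint peak was 29.0% without replicate 1 and 32.6% without replicate 3, and Motif 1 was at 16.0% without replicate 1. Replicate 2 alone gave a divergent share of 16.1%, 34.8% of pairs with a joint peak, a distance of 124 bp, a percentile of 69.8 and Motif 1 at 12.1%. Replicate 3 alone gave a percentile of 68.5 and the DRE at 9.36%. Motif 1 was at 26.2% with up to 1 mismatch, 17.4% by its core, 5.19% within 50 bp of the summit and 17.6% between the starts and 50 bp beyond; the DRE was at 7.78% within 50 bp. Counted after seeing the data, Motif 1 in the gene's direction within 50 bp of a start was at 14.0%, or 35.1% with up to 1 mismatch. The share in all 3 replicates was 71.1% with summits within 250 bp, 75.3% by 1 bp of overlap and 64.5% over all relaxed entries. The cause was not tested. Depth is unknown, so a pair without a peak at either start may be below detection.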

Other observations

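Motif 6 and Motif 7, core promoter elements of longer consensus that the text above does not describe, were found within 100 bp of the summit at 4.74% and 15.2% of divergent promoter peaks. One-sided promoter peaks had 5.16% and 12.4%, and midpoints of divergent pairs without a joint peak 1.11% and 3.95%, against 1.46% and 6.75% of all protein-coding start sites off X. Motif 7 was found at 14.6%, 17.7% and 12.8% of divergent peaks in replicates 1, 2 and 3 and at 11.9%, 10.7% and 9.54% of one-sided peaks, higher at divergent peaks in 3 of 3 replicates. No test was made.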
